A study of Mus musculus with 8 samples.

Results

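Pax2, Evx1, Nkx2-4, Nkx2-2 and Pou3f1 encode transcription factors with a homeodomain or, for Pax2, a paired domain, and their loci lie outside the Hox clusters or, for Evx1, at the edge of one. The 5 genes were followed through 4 windows of mm9, which were chosen by their H3K27me3 peaks and reads in these libraries. The windows were Pax2 on chromosome 19 from 44780000 to 44920000, Evx1 on chromosome 6 from 52255000 to 52275000, Nkx2-4 with Nkx2-2 on chromosome 2 from 146890000 to 147030000, and Pou3f1 on chromosome 4 from 124320000 to 124345000. Peaks of all 6 lists inside them merged to 71 regions of the 27092 in the series, and 0 peaks crossed a window edge. Earlier results of all 6 ChIP libraries were known when the windows were chosen. Values in them are therefore descriptions, and their intervals give counting error and test nothing about the genes.

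Polycomb repressive complex 2 places H3K27me3 on nucleosomes, and the mark is typical of developmental regulators that are silent in a given cell type. In mammals it gathers at stretches rich in CG pairs around such genes and can spread into broad domains. Pax2 directs the development of kidney, eye and ear, and Nkx2-2 patterns the ventral neural tube and the endocrine pancreas. Nkx2-4, a neighbour of Nkx2-2 on the chromosome, is expressed in the embryonic hypothalamus, Evx1 marks spinal interneurons, and Pou3f1 (Oct-6) acts in myelinating Schwann cells. E2F3 is a transcription factor of cell cycle genes, and HELLS is an SNF2-like helicase that remodels chromatin.

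Chromatin came from fibroblasts of E13.5 mouse embryos (MEFs), either wild type or E2f3-/- (E2f3 null). Antibodies to H3K27me3, HELLS and E2F3, and an IgG control, gave 1 sample each per genotype, 8 samples in all. How many embryos or cultures stood behind a library is not given in the sources used here. With 1 library per group each comparison is between 2 libraries, so no p-value is given, and intervals are exact 95% intervals of counting error. Distinct reads in the 6 ChIP libraries numbered from 3799779 for E2f3-null H3K27me3 to 5640555 for wild-type H3K27me3. A single IgG library served both genotypes because their files were identical. The headers of the peak lists give the wild-type control 3444066 tags and the E2f3-null control 3791438, whereas the deposited IgG file held 7223444 reads. It is thus not the file that either set of peak calls names. It held nearly as many reads as both controls together, and whether they came from 1 genotype or both is not given in the sources used here. That limit holds for every value over IgG. The share of reads in a library's own peaks was 14.3% (14.3 to 14.3, Clopper-Pearson) for wild-type and 4.36% (4.34 to 4.38) for E2f3-null H3K27me3. The part of this gap in the ratios given here was not tested. In chromatin from many cells, fewer cells with the mark and less mark per cell cannot be told apart. The fibroblast label was not checked, since these reads do not measure expression.

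Promoter sequence of RefSeq (GRCm38.p6) was found for 4 of the 5 genes, with 3 start sites for Pax2; Pou3f1 had none. The 250 bases before the start are shown for 4 of these 6 starts, because CG pairs, in capitals, are the feature at which H3K27me3 gathers. Each is written 5′ to 3′ on the strand of its gene, plus for Pax2 and Evx1 and minus for Nkx2-4 and Nkx2-2. For Pax2 the start with most CG pairs was taken.
Nkx2-4: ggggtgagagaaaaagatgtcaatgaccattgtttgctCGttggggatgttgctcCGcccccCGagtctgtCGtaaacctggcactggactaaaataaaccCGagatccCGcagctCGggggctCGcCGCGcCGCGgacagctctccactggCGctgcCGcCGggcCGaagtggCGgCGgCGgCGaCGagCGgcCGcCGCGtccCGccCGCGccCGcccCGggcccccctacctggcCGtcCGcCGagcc
Nkx2-2: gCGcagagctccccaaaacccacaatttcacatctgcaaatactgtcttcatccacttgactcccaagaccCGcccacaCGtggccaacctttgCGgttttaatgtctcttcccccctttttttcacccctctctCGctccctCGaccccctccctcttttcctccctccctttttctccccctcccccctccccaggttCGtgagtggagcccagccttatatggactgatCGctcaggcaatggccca
Evx1: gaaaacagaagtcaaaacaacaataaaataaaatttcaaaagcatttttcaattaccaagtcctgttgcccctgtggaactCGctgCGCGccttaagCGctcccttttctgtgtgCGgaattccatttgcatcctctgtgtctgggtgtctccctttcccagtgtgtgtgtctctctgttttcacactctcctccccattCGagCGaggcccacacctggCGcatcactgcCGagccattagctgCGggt
Pax2: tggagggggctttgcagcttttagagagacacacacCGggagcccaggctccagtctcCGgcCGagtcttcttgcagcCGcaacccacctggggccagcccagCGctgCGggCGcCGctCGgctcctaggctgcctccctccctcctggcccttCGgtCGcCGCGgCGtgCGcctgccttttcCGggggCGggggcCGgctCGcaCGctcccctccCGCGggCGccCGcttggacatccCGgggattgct
The Nkx2-4 stretch held 33 CG pairs, and 4.03% of 32851 promoter entries held as many or more. Pax2 held 25 (10.7% held as many), Evx1 10 (37.8%) and Nkx2-2 8 (43.0%), beside a median of 6. The other Pax2 starts held 20 and 5. Nkx2-4 is thus the most CG-dense of the promoters found, and Nkx2-2 has little more than the median.

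A pair of E2F-like motifs were searched on both strands of these 250 bases. GGCGGGA, or TCCCGCC on the other strand, occurred once in the Nkx2-4 stretch and in 9.75% of all promoter entries. TTTNGCG, or CGCNAAA, occurred once, at the Pax2 start with 5 CG pairs, which is not shown, and in 3.49% of all entries. The other 4 stretches held neither motif. The promoter positions belong to another build than the reads, so a match was not placed on a peak.

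H3K27me3 formed 2 kinds of pattern in wild-type cells. Pou3f1 and Nkx2-4 carried short, tall blocks, while Pax2 and Nkx2-2 carried broad blocks of lower density. Evx1 lay between these in span. Its density over the marked regions was 22.4 times background, near the 23.4 of Pax2 and the 24.5 of Nkx2-2. The authors listed 63 wild-type H3K27me3 peaks in the windows, of which 41 lay at Pax2, 12 at Nkx2-4 with Nkx2-2, 7 at Evx1 and 3 at Pou3f1. In E2f3-null cells they listed 44, with 24, 10, 8 and 2 in the same order. Wild-type peaks covered 69.7 kb and E2f3-null peaks 38.4 kb. The E2f3-null H3K27me3 library had fewer reads, and the part of depth in these counts and lengths was not tested. An overlap was counted from 1 shared bp. By that measure 26 of the 63 wild-type peaks (41.3%) overlapped an E2f3-null peak, beside 26.2% of the whole list of 17064. In the other direction 34 of the 44 E2f3-null peaks (77.3%) overlapped a wild-type one, beside 72.9% of the 7079. A false discovery rate above 5% was given by the authors for 25 of the 44 E2f3-null peaks, beside 65.3% of that whole list, and for 0 of the 63 wild-type peaks, as for 0 of the whole wild-type list.

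Pou3f1 had the densest 1 kb bin, on chromosome 4 from 124335001 to 124336000. It held 437 wild-type and 211 E2f3-null H3K27me3 reads beside 21 IgG reads. This was 171 times the wild-type background density of 2.56 reads per kb and 111 times the E2f3-null background of 1.90, while IgG stood at 5.58 times its own. Among the 25 bins of the Pou3f1 window, wild-type H3K27me3 reads and IgG reads had a Spearman correlation of 0.482.

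The highest-scoring Pou3f1 peak ran from 124333331 to 124336893 in wild-type cells, where it ranked 20 of 17064 peaks by the authors' score. In E2f3-null cells it ran from 124333827 to 124336370 and ranked 2 of 7079. The wild-type score, 3100 from 743 tags, lay below those of the main Nkx2-4 and Evx1 peaks, which had 513 and 499 tags. Rank by score thus did not follow the number of tags. The authors' fold was 45.45 at Pou3f1, beside 23.82 at Nkx2-4 and 44.98 at Evx1. Whether a limit of the score set the round value of 3100 was not tested, so no weaker enrichment is read from this rank. The summits of both genotypes lay 9 bp apart. The merged region held 743 and 316 reads, a scaled ratio of 0.571 (0.499 to 0.652).

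The Nkx2-4 and Nkx2-2 window held 2 separate blocks of H3K27me3. In the gene table Nkx2-4 precedes Nkx2-2 along chromosome 2 with no other protein-coding gene between them, so the first block is called the Nkx2-4 block here and the second the Nkx2-2 block. The Nkx2-4 block was a single region from 146909293 to 146911817, with 517 wild-type, 219 E2f3-null and 39 IgG reads. Its peak had rank 2 of 17064 in the wild-type list and 3 of 7079 in the E2f3-null list. The 89.3 kb between the blocks held 168 wild-type and 154 E2f3-null H3K27me3 reads, 0.736 and 0.906 times background, so the neighbours were not joined by the mark.

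The Nkx2-2 block spanned 20.5 kb from 147001086 to 147021585 in 10 regions. It held 884 wild-type, 284 E2f3-null and 106 IgG reads. The mark was 24.5 times background in wild-type and 10.6 times in E2f3-null cells, against 80.1 and 45.6 times in the Nkx2-4 block. The Nkx2-4 block was thus the denser of the pair in each genotype.

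Pax2 carried the most extended mark. When peaks at most 5 kb apart were joined, wild-type cells had a domain of 54.3 kb, from 44791098 to 44845386, the seventh longest of 9429 wild-type domains (rank 7). Further domains of 9.16 kb and 30.3 kb followed within the window. In E2f3-null cells the same rule gave 6 pieces, the longest 13.1 kb. Of the 24 E2f3-null peaks at Pax2, 16 had a false discovery rate above 5%. The part of the lower read number of that library in these pieces was not tested. The densest bin, from 44831001 to 44832000, held 250 wild-type, 47 E2f3-null and 22 IgG reads. The highest-scoring Pax2 peak lay elsewhere, near the far end of the window from 44908952 to 44911510, and had rank 98 in the wild-type list and 304 in the E2f3-null list.

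Evx1 is the next protein-coding gene after Hoxa13 in gene order. Its wild-type domain spanned 13.2 kb from 52260230 to 52273412, inside the window. The E2f3-null domain spanned 18.2 kb and began at 52254475, outside the window on the side of the HoxA cluster. The main peak, from 52263131 to 52267758, ranked 3 of 17064 in wild-type cells. The corresponding E2f3-null peak, from 52263814 to 52267728, ranked 390 of 7079. The densest bin, from 52266001 to 52267000, held 190 and 71 H3K27me3 reads beside 18 IgG reads.

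**Figure D1:**
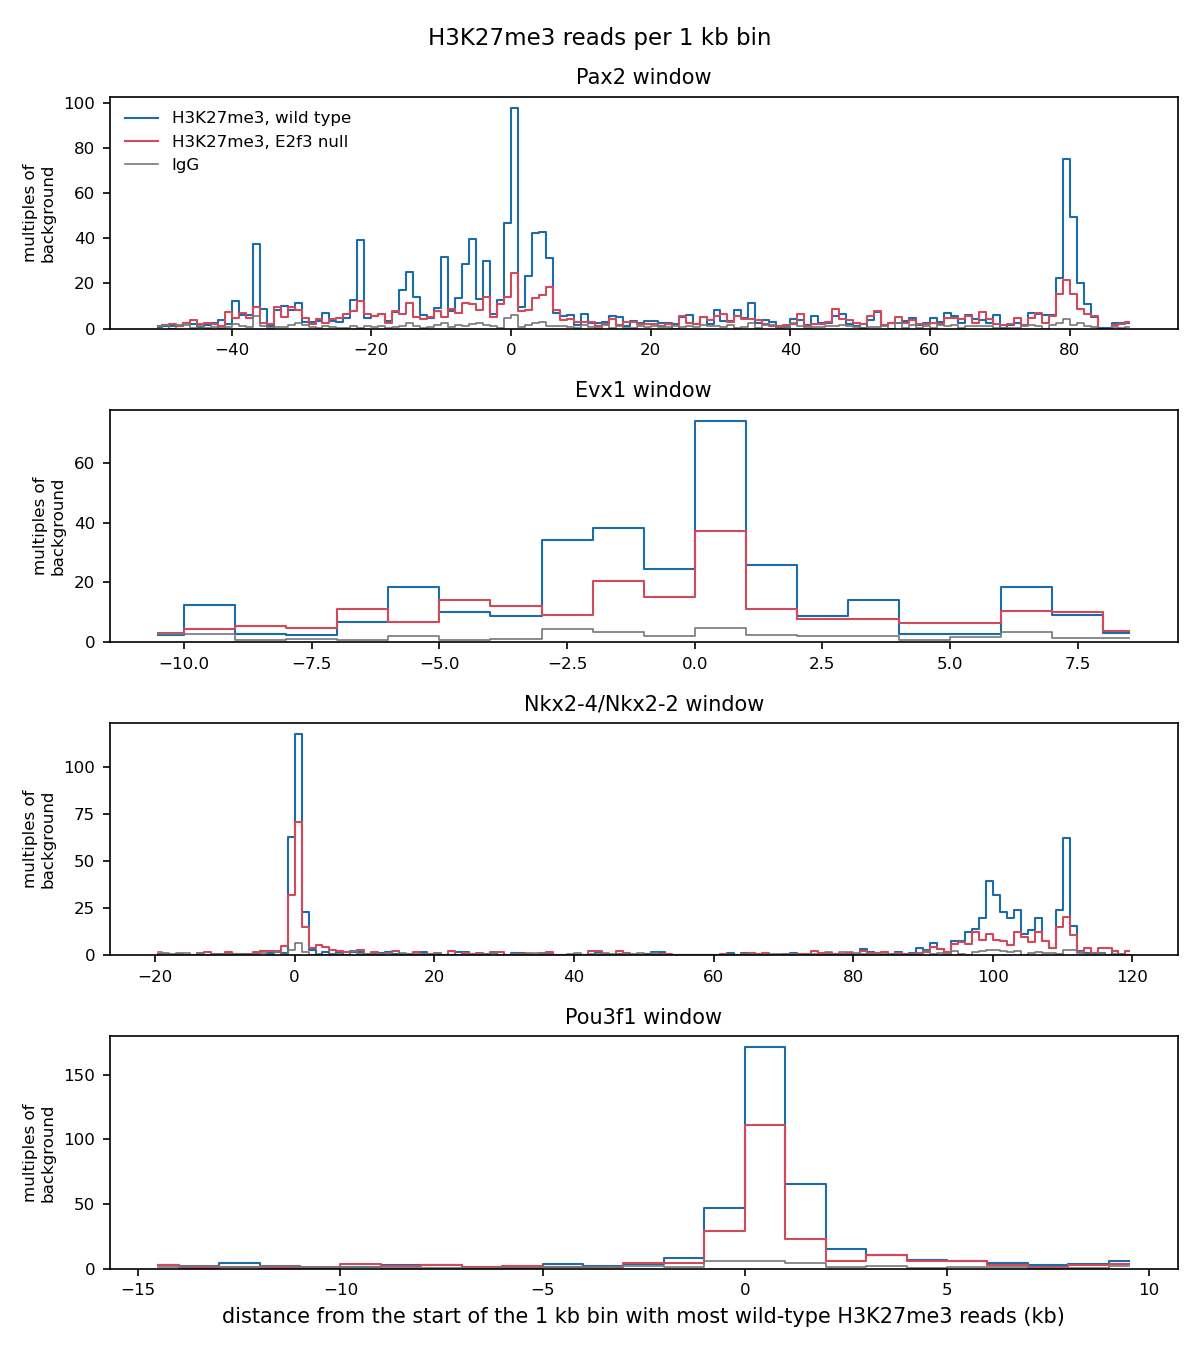
H3K27me3 and IgG reads per 1 kb bin in the 4 windows, as multiples of each library's background density (y axis), against distance in kb from the bin with most wild-type H3K27me3 reads (x axis). Pou3f1 and Nkx2-4 show a single narrow block that reaches 171 and 117 times background in wild-type cells, while Pax2 shows many peaks over most of the window.

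Across the windows 110 of 325 bins held at least 5 times background of wild-type H3K27me3, and 100 did so for the E2f3-null library. In the genome 1.74% and 0.975% of bins did so, counted against the effective genome. The same 87 bins passed in both genotypes, 23 in wild-type cells alone and 13 in E2f3-null cells alone. IgG passed in 5 of the 325 bins. Most of the bins that passed were thus shared. How many bins of the whole genome passed in both genotypes was not counted, so nothing about these genes is read from this sharing.

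The next question was how far H3K27me3 at these genes differed between the libraries of wild-type and E2f3-null cells. Reads were counted over the merged H3K27me3 regions of both genotypes in each window. H3K27me3 was lower in the E2f3-null library at all 5 genes under the scaling by reads outside peaks. Pax2 held 2493 and 800 reads in 47 regions, a ratio of 0.431 (0.397 to 0.467). Evx1 held 726 and 336 in 10 regions, a ratio of 0.622 (0.544 to 0.708). Pou3f1 held 806 and 345 in 3 regions, a ratio of 0.575 (0.505 to 0.653). The window of Nkx2-4 and Nkx2-2 held 1401 and 503, a ratio of 0.482 (0.435 to 0.534), made up of 0.569 (0.483 to 0.668) in the Nkx2-4 block and 0.431 (0.376 to 0.494) in the Nkx2-2 block.

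Enrichment over IgG remained in the E2f3-null library at each gene. It was 12.0-fold in wild-type and 5.19-fold in E2f3-null cells at Pax2, 9.99 and 6.21 at Evx1, 19.5 and 11.1 at Nkx2-4, 12.3 and 5.30 at Nkx2-2, and 15.2 and 8.75 at Pou3f1. Scaling decided the direction at several genes. When libraries were scaled to the median of the H3K27me3 regions listed in both genotypes, which shifts all log2 ratios by 1.02 and removes any change common to those regions, Evx1 turned to 1.26 (1.10 to 1.43) and Pou3f1 to 1.16 (1.02 to 1.32), Nkx2-4 with Nkx2-2 stood at 0.975 (0.878 to 1.08), and Pax2 stayed lower at 0.871 (0.803 to 0.944).

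Ratios between genes do not depend on that scaling. The null-to-wild-type ratio at Pax2 was 0.693 times that at Evx1 (0.594 to 0.810), 0.750 times that at Pou3f1 (0.644 to 0.873) and 0.758 times that at Nkx2-4 (0.633 to 0.909). The ratio at Pax2 was 0.999 times that at Nkx2-2 (0.853 to 1.17). The ratio at Nkx2-4 was 1.32 times that at its neighbour Nkx2-2 (1.07 to 1.63), that at Pou3f1 1.33 times (1.10 to 1.61) and that at Evx1 1.44 times (1.19 to 1.74). The ratio at Evx1 was 1.08 times that at Pou3f1 (0.899 to 1.30) and 1.09 times that at Nkx2-4 (0.886 to 1.35), and that at Pou3f1 was 1.01 times that at Nkx2-4 (0.822 to 1.24). Since H3K27me3 chose the windows, these 10 values describe the libraries and are no test between genes.

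**Figure D2:**
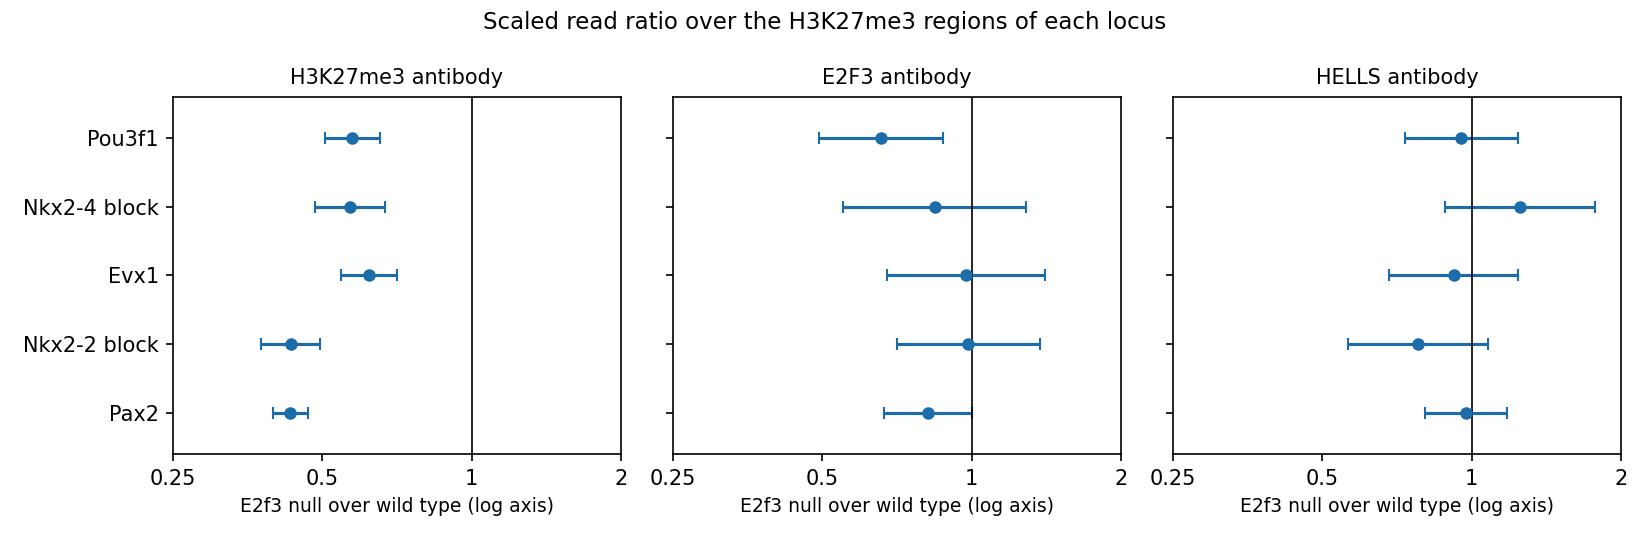
Scaled read ratio of E2f3-null over wild type (x axis, log scale) over the H3K27me3 regions of each gene (y axis) for the 3 antibodies; points are ratios of summed reads, bars exact 95% counting intervals, and the vertical line a ratio of 1. For H3K27me3, Pax2 and Nkx2-2 sit at 0.431, with Nkx2-4 at 0.569, Pou3f1 at 0.575 and Evx1 at 0.622.

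Single regions inside a gene did not all move alike. Over all 18563 H3K27me3 regions of the series 41.3% were called lower and 2.75% higher, where a call needed a difference of at least 2-fold and an interval that left out 1. The median of their log2 ratios was -1.19. Among the 71 regions in the windows 23 (32.4%) were lower and 3 higher, and the median was -0.81. The lower regions were 14 of 47 at Pax2, 3 of 10 at Evx1, 5 of 11 at Nkx2-4 with Nkx2-2, and 1 of 3 at Pou3f1. Regions with few wild-type reads were listed in part because the E2f3-null library was high there, which raises their ratios. Nothing about the genes is read from the shares called lower or higher, since the same reads chose the windows.

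Among the 12 member regions of at least 100 wild-type reads 9 were lower, with a median ratio of 0.397. A cut on wild-type reads favours low ratios, inside the windows and outside, so these values are a description. Outside the windows 1792 of 2137 such regions (83.9%) were lower, with a median of 0.382. All 6 such regions of Pax2 were lower, between 0.271 (0.167 to 0.423) and 0.432 (0.341 to 0.543). The 3 that were not called lower were the Pou3f1 region at 0.571, the Nkx2-4 region at 0.569 and a Nkx2-2 region at 0.622 (0.444 to 0.860). Of the 2137 regions outside, 92.7% had a lower log2 ratio than the Pou3f1 and the Nkx2-4 regions. H3K27me3 chose the windows, so this rank is a description.

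Regions of the Nkx2-2 block differed in their ratios. The region from 147009443 to 147010526 fell from 177 reads in wild type to 27 in E2f3 null, a ratio of 0.205 (0.131 to 0.308). Its neighbour from 147011198 to 147012436 held 95 and 13, a ratio of 0.184 (0.0944 to 0.330). The next, from 147012570 to 147015481, held 121 and 56, and its ratio of 0.622 (0.444 to 0.860) did not overlap the intervals of those 2. Among the regions named here, the lowest and the highest ratio thus lay next to each other. The highest ratio of the whole block was 0.945 (0.497 to 1.76), from 27 and 19 reads in the region from 147007453 to 147008168.

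At Evx1 the region from 52260975 to 52262848 held 47 and 50 reads, a ratio of 1.43 (0.940 to 2.17), next to the main peak with 497 and 175 and a ratio of 0.473 (0.396 to 0.563). A region listed in E2f3-null cells alone, from 52270730 to 52271361, held 1 wild-type and 15 E2f3-null reads, a ratio of 20.1 with an interval from 3.10 to 848. Other flanks were lower in the E2f3-null library. The region from 52260230 to 52260878 had 42 wild-type reads and 8 E2f3-null ones, a ratio of 0.256 (0.104 to 0.552). That from 52271678 to 52272689 had 47 and 17, a ratio of 0.486 (0.261 to 0.862). The main Evx1 peak was thus lower in the E2f3-null library, while of its 9 flanking regions 2 were called lower, 2 higher and 5 neither. Over regions with peaks of score 100 or more, the Evx1 ratio was 0.534 (0.462 to 0.617).

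**Figure D3:**
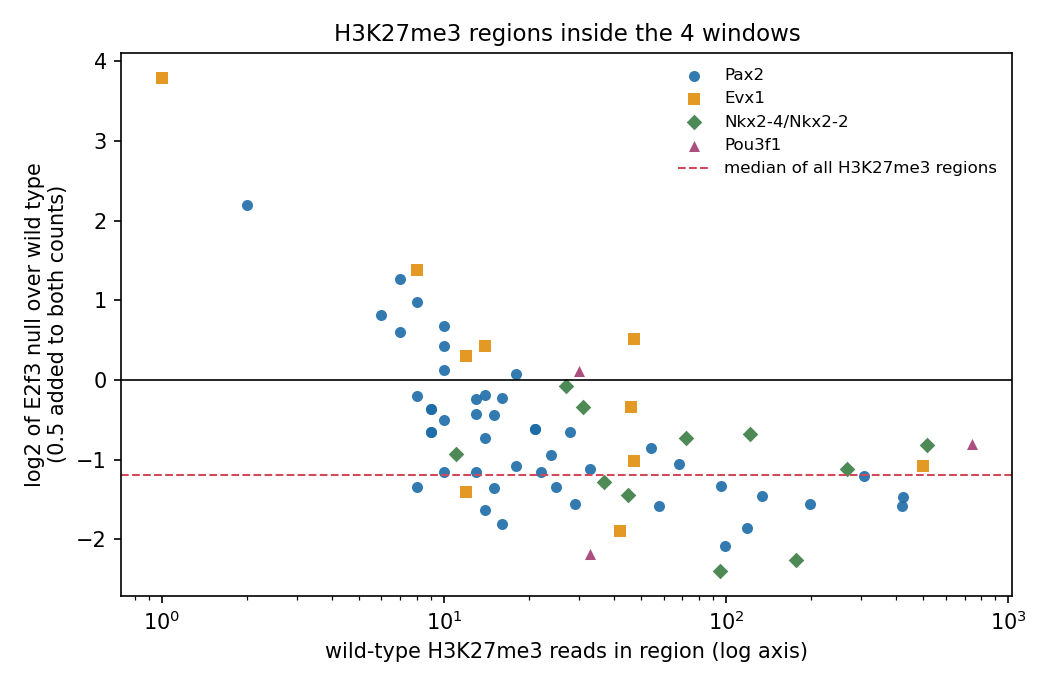
Log2 ratio of E2f3-null over wild-type reads (y axis) against wild-type H3K27me3 reads (x axis, log scale) for the 71 H3K27me3 regions, by window; the dashed line is the median of all regions of the series, -1.19. Each of the 12 regions with at least 100 wild-type reads lies below 0, and the points above 0 have fewer than 50. Wild-type reads also enter the ratio, so a high value on the x axis favours a low one on the y axis.

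Outside the H3K27me3 regions the interval spanned 1 in 3 of the 4 windows. The rest of the Pax2 window held 737 wild-type and 578 E2f3-null reads, a ratio of 1.05 (0.943 to 1.18). That of the Evx1 window had 0.847 (0.599 to 1.19) and that of Pou3f1 0.857 (0.657 to 1.11). Around Nkx2-4 and Nkx2-2 the ratio was 1.38 (1.16 to 1.63), from 281 and 288 reads, at 0.891 and 1.23 times background. Over the whole window, marked or not, the ratios were 0.573 at Pax2, 0.647 at Evx1, 0.632 at Nkx2-4 with Nkx2-2 and 0.620 at Pou3f1.

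The E2F3 and HELLS antibodies were then followed at the same genes, to ask whether these factors were present on Polycomb-marked chromatin and whether their signal needed E2f3. Peaks of these antibodies were few and lay at 4 places, 1 in each window, all inside a wild-type H3K27me3 peak. Pou3f1 and Nkx2-4 were listed in all 4 lists, for E2F3 and HELLS in both genotypes. Evx1 was listed for wild-type E2F3 alone, Pax2 for E2F3 and HELLS in E2f3-null cells alone, and the Nkx2-2 block in none. Outside the windows 467 wild-type H3K27me3 domains spanned over 10 kb, as those of Evx1, Nkx2-2 and 2 of Pax2 did. Of these 37.3% held a wild-type and 22.5% an E2f3-null E2F3 peak, and 15.6% a wild-type and 35.8% an E2f3-null HELLS peak. Pou3f1 and Nkx2-4 belong to the shorter class. Among 8955 domains of at most 10 kb outside the windows the shares were 17.1% and 7.44% for E2F3, and 5.33% and 11.8% for HELLS.

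At Pou3f1 the E2F3 region ran from 124334231 to 124336373. The E2F3 antibody gave 112 wild-type reads and 65 E2f3-null ones, with 46 from IgG, a ratio of 0.603 (0.437 to 0.826). HELLS reads in the HELLS region, from 124334276 to 124336376, were 99 and 104, a ratio of 1.04 (0.785 to 1.39). The E2F3 signal was thus lower in the E2f3-null library, with a fall of 2-fold inside the interval, and the HELLS signal did not differ beyond counting error. Over IgG the merged region held 4.0-fold E2F3 signal in wild-type and 2.42-fold in E2f3-null cells, and 3.01-fold and 3.14-fold HELLS signal.

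The wild-type E2F3 summit at Pou3f1 lay 828 bp from the H3K27me3 summit, at 124334754. Each other summit was set against the H3K27me3 summit of its own genotype. The E2F3-antibody summit in E2f3-null cells lay 225 bp away, the wild-type HELLS summit 12 bp and the E2f3-null HELLS summit 17 bp. The 250 bp step with most wild-type E2F3 reads, from 750 to 500 bp before the centre of the peaks, counted 29 reads for wild type and 10 for E2f3 null, a ratio of 0.358 (0.156 to 0.756). The rest of the region held 83 and 55, a ratio of 0.689 (0.481 to 0.980). That step was chosen for its wild-type height, which lowers its ratio, so the difference is a description. It held 25 wild-type H3K27me3 reads and 8 wild-type HELLS reads, and was not the step with most reads of either antibody. The step that starts 250 bp before the centre had most wild-type HELLS reads, 25, and held 19 wild-type E2F3 reads. Whether 29 and 19 E2F3 reads differ beyond counting error was not tested.

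At Nkx2-4 the E2F3 region, from 146909599 to 146911215, held 50 and 42 reads of the E2F3 antibody beside 34 IgG reads, a ratio of 0.873 (0.565 to 1.34). HELLS reads from 146909648 to 146911197 were 58 and 76, a ratio of 1.30 (0.913 to 1.86). Neither antibody differed beyond counting error, and the interval of the E2F3 read ratio, with IgG not subtracted, excluded a fall of 2-fold. With IgG subtracted, the E2F3 ratio over the H3K27me3 regions of Nkx2-4 with Nkx2-2 was 0.774 (0.325 to 1.84). That interval did not exclude such a fall. The enrichment over IgG was modest, 2.42-fold and 2.11-fold for E2F3 and 2.36-fold and 3.07-fold for HELLS.

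At Evx1 the E2F3 peak from 52266537 to 52267077 had its summit 5 bp from the wild-type H3K27me3 summit. Its reads numbered 23 for wild type and 17 for E2f3 null, with 14 from IgG, and the ratio was 0.768 (0.385 to 1.50). HELLS, not listed there, held 21 and 25. The peak was listed in wild-type cells alone, yet the reads did not show a difference, and a fall of 2-fold was not excluded at this depth.

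At Pax2 the only place with E2F3 or HELLS peaks lay from 44821064 to 44821416. There HELLS gave 4 reads for wild type and 20 for E2f3 null, with 5 from IgG, and the ratio was 4.97 (1.66 to 20.0). Of the 3 HELLS regions in the windows it was the 1 called higher, and 0 were called lower, beside 5.2% and 4.65% of all 5962 HELLS regions. It was listed in E2f3-null cells alone, which favours such a rise. E2F3 reads were 12 and 9, so the E2F3 peak called there in E2f3-null cells alone had no lower count in wild-type cells. H3K27me3 in the same stretch fell from 63 to 8 reads, a ratio of 0.171 (0.0706 to 0.357), the lowest of the 4 places.

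**Figure D4:**
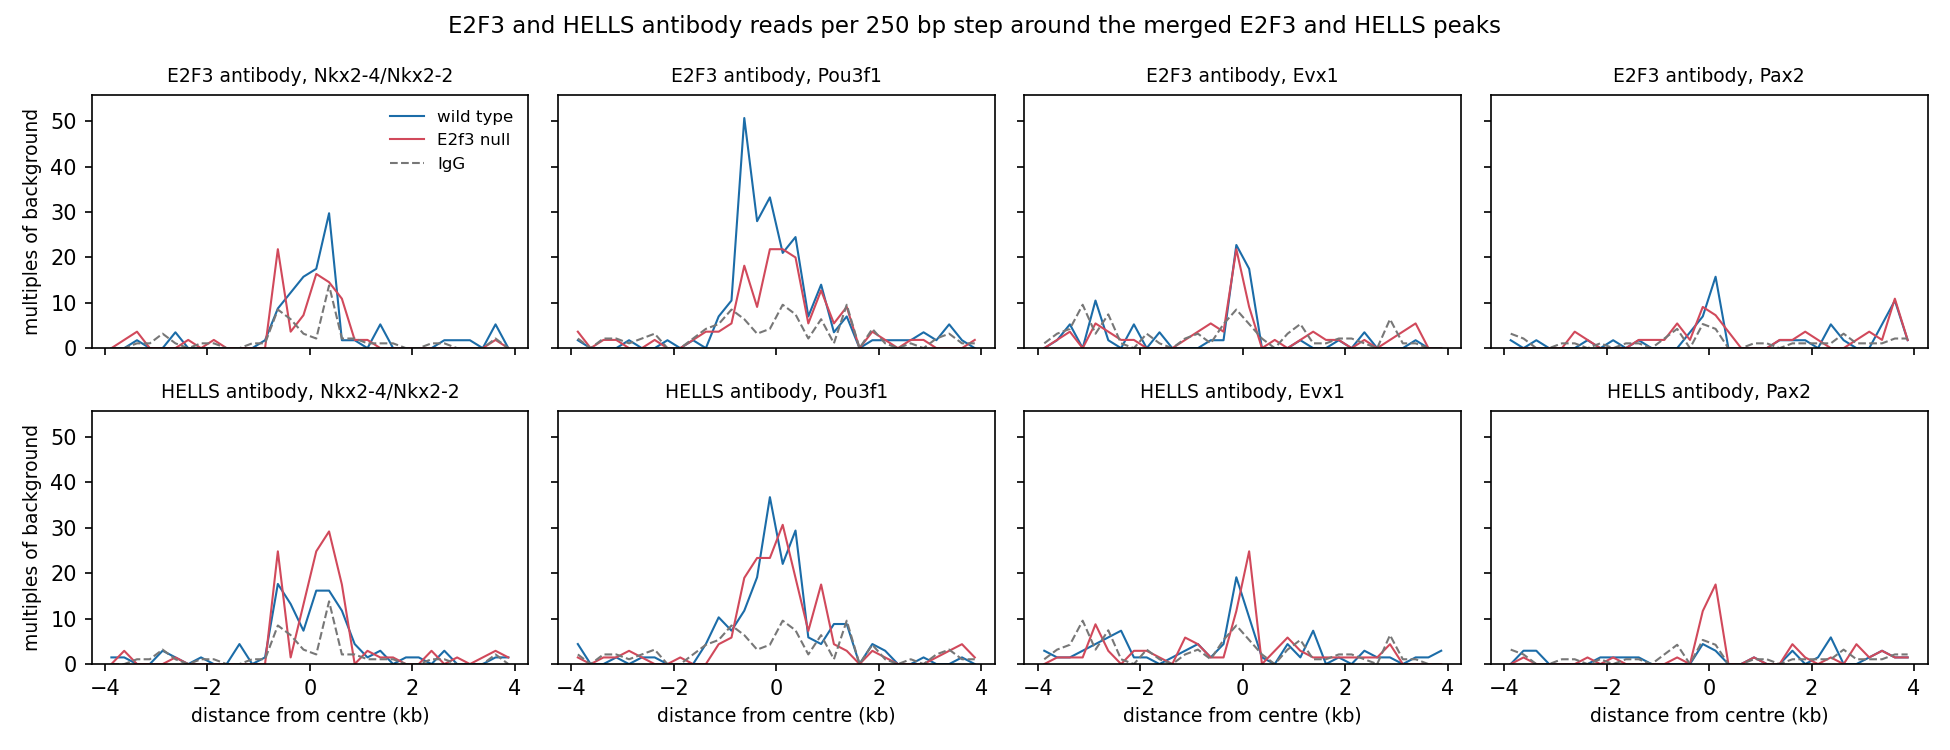
Reads of the E2F3 (top) and HELLS (bottom) antibodies per 250 bp step, as multiples of background (y axis), against distance in kb from the centre of the merged E2F3 and HELLS peaks in each window (x axis), with IgG dashed. The wild-type E2F3 maximum at Pou3f1 lies before the centre. The HELLS lines at Pou3f1 cross each other near the centre, while at Pax2 the E2f3-null line stands above the wild-type line in the steps next to it.

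Among all 9643 E2F3 regions 66.8% were called lower and 0.954% higher in E2f3-null cells, and the median log2 ratio was -1.45. Of the 4 E2F3 regions in the windows 0 were called lower and 0 higher, with log2 ratios of -0.72 at Pou3f1, -0.37 at Evx1, -0.22 at Pax2 and -0.19 at Nkx2-4. The 2118 E2F3 regions that overlapped a wild-type H3K27me3 peak had 45.6% lower and a median of -1.04. Of the 2114 of these outside the windows, between 66.7% and 85.0% had a lower log2 ratio than a member region. The members lay in the upper part of that class without leaving its range. The Pax2 region was listed in E2f3-null cells alone, which favours a high ratio. The Evx1 region was listed in wild-type cells alone, which favours a low one. The windows were chosen with these libraries known, so these ranks are a description. IgG stood at 4.46 to 6.87 times background in the 4 regions, beside a median of 4.96 over all E2F3 regions, and its part in the reads that remained was not tested.

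Over the wider H3K27me3 regions of each gene the E2F3 antibody held 219 and 172 reads at Pax2, a ratio of 0.816 (0.665 to 1.00), and 65 and 61 at Evx1 (0.975, 0.676 to 1.40). Nkx2-4 with Nkx2-2 held 130 and 116 (0.927, 0.716 to 1.20) and Pou3f1 128 and 81 (0.658, 0.492 to 0.875). Pou3f1 was the only gene whose interval left out 1, and after subtraction of IgG its ratio was 0.456 (0.253 to 0.823). When E2F3 libraries were scaled by the median of E2F3 regions listed in both genotypes, which shifts log2 ratios by 1.16, the E2F3 ratios turned to 1.82 at Pax2, 2.18 at Evx1, 2.07 at Nkx2-4 with Nkx2-2 and 1.47 at Pou3f1, since it takes out the general loss of the E2F3 signal.

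HELLS ratios over the same regions were 0.975 (0.806 to 1.18) at Pax2, 0.921 (0.682 to 1.24) at Evx1, 0.973 (0.771 to 1.23) at Nkx2-4 with Nkx2-2 and 0.952 (0.733 to 1.24) at Pou3f1. None of these 4 intervals excluded 1, nor did any of the 10 pairs of genes differ in E2F3 or in HELLS beyond counting error. In the Nkx2-4 block alone HELLS stood at 1.25 (0.884 to 1.77) and in the Nkx2-2 block at 0.781 (0.563 to 1.08). Over these wide regions, enrichment over IgG was near 1 outside the short blocks. It was 1.18-fold for wild-type E2F3 and 1.02-fold for wild-type HELLS at Pax2, and 1.20-fold and 1.16-fold at Nkx2-2. At the narrower places with E2F3 or HELLS peaks, wild-type E2F3 stood higher, at 2.70-fold (1.33 to 5.68) at Evx1 and 3.95-fold (1.29 to 14.3) at Pax2. Wild-type HELLS stood there at 2.08-fold (1.01 to 4.41) and 1.11-fold (0.220 to 5.14). Peaks were listed for reads above a control, which favours enrichment over IgG at such places. The Evx1 place was listed for wild-type E2F3 and not for HELLS, so its E2F3 value is a description. Over the wide regions again, the blocks differed. The short, dense blocks of Pou3f1 and Nkx2-4 had 2.70-fold and 2.24-fold for E2F3 and 2.16-fold and 2.20-fold for HELLS. These were also the blocks with the densest IgG reads, at 3.98 and 4.10 times background against 1.94 at Pax2 and 1.99 at Nkx2-2.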

How the data were processed

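Chromatin from mouse embryonic fibroblasts at E13.5 was immunoprecipitated from wild-type or E2f3-/- cells with 10 µg of antibody, amplified for 22 PCR cycles, and read for 36 nucleotides from 1 end, per the labels' protocols. Each line of a deposited read file is 1 read placed on mm9, the build named in the submitters' processing notes. The aligner is not given in the sources used here. Per the file headers, the authors ran MACS 1.4.0beta on every ChIP library alone, with the IgG of its genotype as control and a p cutoff of 1e-05. The deposited peak tables give tags as counts, a score of 10 times the negative log10 p, a fold (a ratio to the locally expected tags), and, in percent, the false discovery rate. Scores serve only to describe or rank peaks within a list.

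From the read files, distinct reads (1 per position and strand) were moved by 60 bp towards the fragment centre and counted. Libraries were scaled by their reads outside all 27092 merged peak regions of the series (21.5 Mb). The scaled ratio is E2f3-null over wild type and carries an exact conditional binomial 95% interval, which covers counting error only. A call of lower or higher needed at least 2-fold and an interval that left out 1. Each count was raised by 0.5 before log2 was taken. Background density was the reads outside peaks over the effective genome of 1.87 Gb less the peak regions. With 1 library per group no p-value was computed. The interval and the call were tested on simulated counts. The IgG files of both genotypes were identical and served as 1 background library, which is larger than either control the peak headers name.

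The windows and members were chosen with earlier results of these data known, the H3K27me3 peak lists among them. Named regions were every E2F3 and HELLS peak, the H3K27me3 peak with the highest score per genotype and the 1 kb bin with most wild-type H3K27me3 reads in each window. Promoters were matched by symbol to RefSeq (GRCm38.p6), and no coordinate was carried between builds. Other homeobox and Pax genes were not analysed here, since no annotation of mm9 was used. The alternatives tried were duplicate reads kept, libraries scaled by total distinct reads or by the median of shared regions, the whole window, reads not moved, peaks of score 100 or more and subtraction of IgG. Analyses used Python 3.11.15, numpy 2.4.6, pandas 2.3.3 and scipy 1.17.1.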

Additional observations from a re-analysis of the deposited data

How the results depend on the processing

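The 12 ratios (3 antibodies in 4 windows) kept their call, an interval on 1 side of 1 or across it, when duplicate reads were kept, when all distinct reads set the scale, when reads were not moved and over the whole window; uncalled ratios near 1 crossed it for E2F3 at Evx1 (1.04 with reads not moved, 1.04 with all distinct reads, 1.06 over the whole window) and Nkx2-4 with Nkx2-2 (1.04, whole window), and for HELLS at Pax2 (1.02, reads not moved) and Pou3f1 (1.05, whole window). Scaling by the median of shared regions reversed the H3K27me3 ratio at Evx1 (1.26) and Pou3f1 (1.16) and the E2F3 ratio at Pax2 (1.82), Evx1 (2.18), Nkx2-4 with Nkx2-2 (2.07) and Pou3f1 (1.47), and left H3K27me3 at Nkx2-4 with Nkx2-2 at 0.975 with an interval that spans 1. By construction it takes out any change common to the shared regions. With peaks of score 100 or more the E2F3 ratio at Pax2 was 0.755 (0.597 to 0.951), past the interval test, over fewer regions, and uncalled HELLS ratios were 1.04 at Pax2 and 1.03 at Evx1. That threshold left 35 of 63 wild-type and 19 of 44 E2f3-null H3K27me3 peaks, 1 of 3 E2F3 peaks in each genotype, 1 of 2 wild-type HELLS peaks and 3 of 3 E2f3-null ones. Subtraction of IgG changed no call where it gave a value. It gave none for E2F3 at Pax2 and Evx1 and for HELLS at Pax2, where IgG was as high as a ChIP library. No paired analysis was possible because each group had 1 library, and no replicate could be left out. At about 20 reads, as in the Evx1 E2F3 peak, a 2-fold difference was within counting error.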

Other observations

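The authors' lists treat the same place differently from the reads. The wild-type HELLS peak at Pou3f1 ranked 12 of 2489 by score yet carried a false discovery rate of 66.7%, while the E2f3-null one, with a rank of 295 of 4740, carried 0.340%. At Nkx2-4 the wild-type HELLS rate was 8.54% and the E2f3-null one 0.810%. In the whole wild-type HELLS list 88.2% of peaks had a rate above 5%, and in the E2f3-null list 0 did. HELLS reads did not differ beyond counting error between the libraries at either gene.

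Across the 325 bins of 1 kb, wild-type and E2f3-null H3K27me3 reads had a Spearman correlation of 0.876, and wild-type H3K27me3 and IgG reads one of 0.610. Wild-type E2F3 and HELLS had 0.523, and the E2F3 antibody in wild-type and E2f3-null cells 0.404. These are descriptions over neighbouring bins that share base composition and mappability.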
